A study of Mus musculus with 8 samples.

Results

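Plexins are cell surface receptors and semaphorins are the secreted, transmembrane or lipid-anchored ligands that bind them. Here 10 genes of these families, the receptor genes Plxna1, Plxnb1, Plxnb2, Plxnc1 and Plxnd1 and the ligand genes Sema4a, Sema4b, Sema4d, Sema6d and Sema7a, were followed in mouse thymic lymphomas. They were taken by symbol from a table of 13681 symbols. Where a symbol had several transcript entries, 1 was chosen by its mean over all 8 libraries, the highest. All 10 genes had an entry and passed the filter on low values. The symbols were picked with earlier results of these data in view, among them the difference of Plxnb2 between ΔNp73-labelled and control tumours, so that difference is given as a description and is no independent support.

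RNA was sequenced from 8 thymic lymphomas of C57BL/6 mice that lacked p53 (p53-/-). An adenovirus was injected into the tumour when the mice were 10 weeks old, and tissue was taken 48 hours later. The 2 control tumours, labelled ΔNfl/fl;p53-/-, received Ad-mCherry, a virus that carries the fluorescent marker mCherry. The 3 tumours labelled ΔNp63Δ/Δ;p53-/- and the 3 labelled ΔNp73Δ/Δ;p53-/- received Ad-CRE-mCherry, which also carries Cre recombinase, the enzyme that cuts out floxed DNA. ΔNp63 and ΔNp73 are the short forms of the p53 relatives p63 and p73. All groups share the p53 deletion and a virus injection, and the control differs from both others in virus and in genotype, so Cre activity as such and loss of the gene cannot be told apart. The labels state neither which gene is floxed in the controls nor the share of tumour cells infected. Whether the tumours of a group grew in different mice is not stated, and p-values cover just the spread between these samples, which may be technical.

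Levels are given as the authors' FPKM (fragments per unit of transcript length and of library size), quantile-normalised between libraries, which allows levels of different genes to be set side by side. The depth of the libraries is unknown. In the ΔNp63-labelled group, replicate 2 stood apart: its median correlation with the other libraries across genes was 0.848, against 0.915 to 0.957 for the other 7. Results are for this reason also given with replicate 2 left out. All 15 thymocyte and T cell markers had an entry, and their summed level was 5302 and 6026 FPKM in the controls, 2196 to 4610 in the ΔNp63-labelled and 2520 to 3965 in the ΔNp73-labelled libraries, lowest in ΔNp63-labelled replicate 2. In such bulk tissue, fewer cells of a type and less RNA per cell cannot be told apart.

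Semaphorins were first described as cues that steer growing axons, and many also act on immune cells and blood vessels. A plexin that binds its ligand signals through a GTPase-activating domain inside the cell, which changes adhesion and the cytoskeleton. In the thymus, plexin-D1 on immature thymocytes guides their move from the cortex to the medulla, and Sema4D, also called CD100, is a semaphorin of T cells that binds plexin-B1, plexin-B2 and the B cell protein CD72.

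The class B plexin genes are given first, since Plxnb2 was the single one of the 10 genes to pass the test in any comparison with all libraries in the model. Plexin-B2 is a receptor for class 4 semaphorins that is found on many epithelial, stromal and myeloid cells. Plxnb2 measured 3.83 and 3.59 FPKM in control tumours, 10.7, 8.87 and 8.79 among ΔNp63-labelled and 13.2, 13.5 and 13.0 among ΔNp73-labelled tumours. The 3 groups did not overlap, with the controls lowest and the ΔNp73-labelled libraries highest. Against control, 12.6% of all genes tested lay higher without overlap in the ΔNp63-labelled and 27.7% in the ΔNp73-labelled group. Group means were 3.71 ± 0.166 FPKM (SD, n = 2), 9.46 ± 1.10 (SD, n = 3) and 13.3 ± 0.286 (SD, n = 3), so the mean was 3.57 times the control mean in the ΔNp73-labelled and 2.55 times in the ΔNp63-labelled group. In the ΔNp73-labelled group Plxnb2 rose against control by a log2 fold change of 1.60 (SE 0.14, limma adjusted p = 0.0289), on the scale of log2(FPKM + 1). Of all 12921 genes tested, 0.0464% were called higher in this comparison. In the ΔNp63-labelled group the difference was 1.15 (SE 0.14) and missed the threshold of 0.05 (adjusted p = 0.0593). Without replicate 2 of that group it was 1.19 (SE 0.12) and passed (adjusted p = 0.0019), where 11.7% of genes tested were called higher. Between the groups given Cre, Plxnb2 was 0.45 higher in the ΔNp73-labelled libraries (SE 0.13, adjusted p = 0.421), and 10.3% of genes tested lay higher without overlap in that comparison.

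The size of the Plxnb2 difference hardly depended on any single control or ΔNp73-labelled library, whereas the call did. With each library left out in turn, the log2 fold change in the ΔNp73-labelled group lay between 1.56 and 1.63. Leaving out a ΔNp63-labelled library cannot change this value, since that group enters just the spread, and it stayed at 1.60. The adjusted p was 0.519 and 0.477 without control replicate 1 or 2, 0.167, 0.251 and 0.0902 without ΔNp73-labelled replicate 1, 2 or 3, and 0.0757 without ΔNp63-labelled replicate 3. It was 0.0289 without ΔNp63-labelled replicate 1 and 0.000642 without replicate 2, whose spread enters the shared model.

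**Figure D1:**
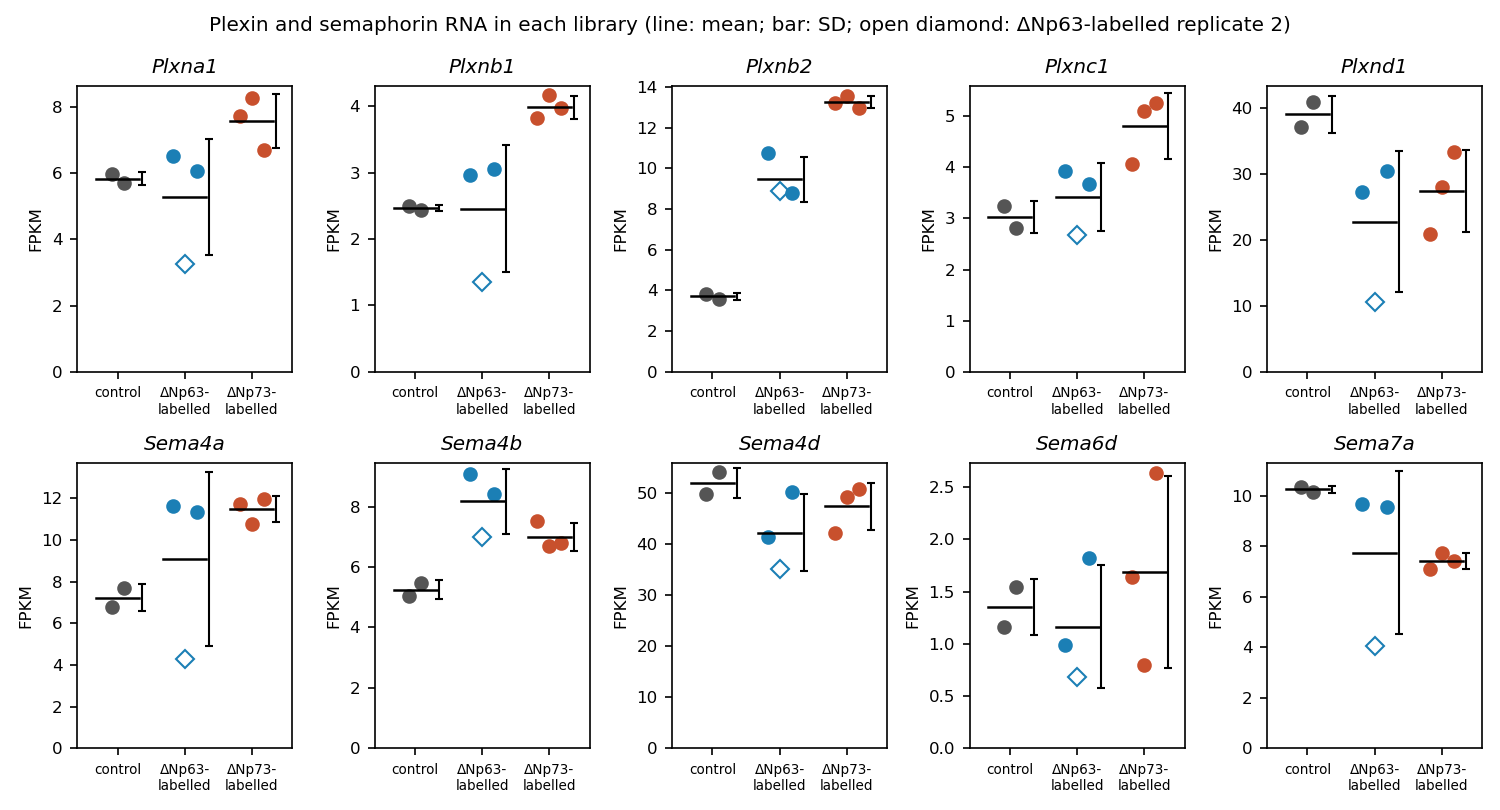
FPKM of the 10 genes in each library (vertical axes, each from 0) by group (horizontal axes), with the group mean as a line and the SD as a bar; the open diamond is ΔNp63-labelled replicate 2. Plxnb2 is the one panel with 3 separate groups, at 3.59 to 3.83, 8.79 to 10.7 and 13.0 to 13.5 FPKM, and replicate 2 is the lowest of all libraries in 8 of 10 panels.

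Plexin-B1, the high-affinity receptor of Sema4D, is the other class B plexin with an entry. Plxnb1 measured 2.50 and 2.43 FPKM in control tumours, 2.96, 1.36 and 3.05 among ΔNp63-labelled and 3.82, 4.16 and 3.97 among ΔNp73-labelled tumours. All ΔNp73-labelled libraries were above the other 5, while ΔNp63-labelled replicate 2 was below the controls and the other replicates of its group above them. Higher ΔNp73-labelled levels without overlap were seen for 27.7% of all genes tested against control and 10.3% against the ΔNp63-labelled group. The difference from control in the ΔNp73-labelled group was 0.52 (SE 0.25, adjusted p = 0.267). Its size cannot depend on ΔNp63-labelled replicate 2, which enters just the spread, and without that library it passed (SE 0.10, adjusted p = 0.00812), as 16.8% of all genes tested did in this direction. In the ΔNp63-labelled group it was -0.04 with all libraries and 0.21 without replicate 2 (adjusted p = 0.199).

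The promoters of these class B genes are shown because Plxnb2 passed and Plxnb1 did not with all libraries. Both windows are from RefSeq on build GRCm38.p6 and reach from 250 bases before to 50 after a gene start, on the minus strand at chr15:89180739-89181038 for Plxnb2 and on the plus strand at chr9:109095186-109095485 for Plxnb1. Their starts lie 0 and 47 bases from the start of the transcript entries used. Capitals mark the GC box, the letters GGGCGG on either strand.
Plxnb2: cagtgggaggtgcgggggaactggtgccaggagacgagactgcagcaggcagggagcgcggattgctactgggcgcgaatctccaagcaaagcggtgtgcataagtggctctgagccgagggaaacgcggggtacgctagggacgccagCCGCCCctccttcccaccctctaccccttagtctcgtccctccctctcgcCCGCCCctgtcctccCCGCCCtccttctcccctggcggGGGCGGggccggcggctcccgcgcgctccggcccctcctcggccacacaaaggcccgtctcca
Plxnb1: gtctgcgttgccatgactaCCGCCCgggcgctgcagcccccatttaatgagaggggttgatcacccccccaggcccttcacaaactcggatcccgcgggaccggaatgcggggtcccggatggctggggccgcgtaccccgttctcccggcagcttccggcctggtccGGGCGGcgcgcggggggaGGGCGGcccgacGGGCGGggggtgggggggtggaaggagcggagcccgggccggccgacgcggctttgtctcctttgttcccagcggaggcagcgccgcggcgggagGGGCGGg
The Plxnb2 window holds 4 GC boxes and that of Plxnb1 holds 5. Of the 10 genes, 9 had a promoter window, and 7 had one within 100 bases of the start of the entry used. A GC box was in 7 of those 7 windows, and in 35.7% of all 32851 windows of the same length. The letters G and C made up 55.3% to 74.7% of these 7 windows, and the set of all windows was not matched to them in this. A CCAAT box (CCAAT), an E-box (CACGTG) and the p53-family half-site were in 0 of the 7, and in 37.4%, 7.15% and 8.36% of all windows. Over all 17 windows of the 9 genes, a GC box was in 13, a CCAAT box in 3, an E-box in 2 and the half-site in 1. Both strands were searched and overlapping matches were counted. Such matches describe letters alone, and 0 of 7 windows cannot show a lack of motifs as rare as the E-box or the half-site.

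Plexin-A1 works as a receptor for Sema6D and, with neuropilins, for secreted class 3 semaphorins, and on dendritic cells it pairs with TREM2 and DAP12, the product of Tyrobp. Plxna1 measured 5.97 and 5.70 FPKM in control tumours, 6.503, 3.27 and 6.05 among ΔNp63-labelled and 7.74, 8.28 and 6.69 among ΔNp73-labelled tumours. The ΔNp73-labelled libraries were the 3 highest of all 8, and ΔNp63-labelled replicate 2 was the lowest. Of all genes tested, 27.7% lay higher in the ΔNp73-labelled group without overlap against control and 10.3% against the ΔNp63-labelled group. Against control the difference was 0.32 (SE 0.25, adjusted p = 0.484) in the ΔNp73-labelled group, and 0.49 (SE 0.23, adjusted p = 0.475) against the ΔNp63-labelled group.

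Plexin-C1 is the plexin that binds Sema7A. Plxnc1 measured 3.24 and 2.81 FPKM in control tumours, 3.92, 2.67 and 3.68 among ΔNp63-labelled and 4.06, 5.10 and 5.25 among ΔNp73-labelled tumours. Here too the ΔNp73-labelled libraries were the 3 highest, where 27.7% of all genes tested lay above control without overlap and 10.3% above the ΔNp63-labelled group. The difference from control was 0.52 (SE 0.19, adjusted p = 0.18), and without ΔNp63-labelled replicate 2 it passed (SE 0.13, adjusted p = 0.0215). In that fit 16.8% of all genes tested rose.

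Plexin-D1, the receptor of Sema3E on thymocytes and endothelium, was the most abundant receptor of the 5. Plxnd1 measured 37.1 and 41.0 FPKM in control tumours, 27.3, 10.6 and 30.5 among ΔNp63-labelled and 20.9, 28.0 and 33.3 among ΔNp73-labelled tumours. Both controls lay above all 6 other libraries, which is the reverse of the order for the 4 other plexins of the 10 in the ΔNp73-labelled group. Of all genes tested, 17.7% lay lower than control without overlap in the ΔNp63-labelled and 35.7% in the ΔNp73-labelled group, where 27.7% lay higher. Neither difference passed, at -0.88 (SE 0.42, adjusted p = 0.431) in the ΔNp63-labelled and -0.52 (SE 0.42, adjusted p = 0.502) in the ΔNp73-labelled group. Without ΔNp63-labelled replicate 2 these were -0.42 (adjusted p = 0.175) and -0.52 (adjusted p = 0.0692). The sum of the thymocyte markers was also lower in all 6 libraries than in the controls and lowest in replicate 2. There 13 of the 15 markers were below both controls and Cd5 was above both. By limma with all libraries 0 of the 15 passed against control in either group. At an unadjusted p under 0.05, 2 were lower in the ΔNp63-labelled and 5 in the ΔNp73-labelled group. Of all genes tested 13.0% and 21.3% had such a p in either direction. Without replicate 2, 1 and 9 fell, where 10.8% and 16.1% of all genes tested did. Cd2 was above both controls in some libraries, at 244.7 FPKM in ΔNp63-labelled replicate 1 against 220.2 and 191.3. The part of these markers in the levels of Plxnd1 was not tested.

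Among the ligands, Sema4d was by far the highest, and it is the semaphorin typical of T cells. It measured 49.97 and 54.2 FPKM in control tumours, 41.5, 35.2 and 50.3 among ΔNp63-labelled and 42.2, 49.2 and 50.9 among ΔNp73-labelled tumours. The groups overlapped. Differences from control were -0.31 (SE 0.18, adjusted p = 0.507) and -0.13 (SE 0.18, adjusted p = 0.687).

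Sema4A is made by dendritic cells and activated T cells and binds class B plexins and plexin-D1. Sema4a measured 6.76 and 7.69 FPKM in control tumours, 11.6, 4.26 and 11.4 among ΔNp63-labelled and 11.7, 10.8 and 12.0 among ΔNp73-labelled tumours. Apart from ΔNp63-labelled replicate 2, the lowest library, all those given Cre lay above both controls. Without replicate 2, 31.9% of all genes tested did so in the ΔNp63-labelled group, and 27.7% did in the ΔNp73-labelled group. With all libraries the differences were 0.19 (SE 0.37, adjusted p = 0.87) and 0.60 (SE 0.37, adjusted p = 0.373). Without replicate 2 both passed, at 0.61 (SE 0.11, adjusted p = 0.00997) in the ΔNp63-labelled and 0.60 (SE 0.10, adjusted p = 0.00523) in the ΔNp73-labelled group. In that fit 11.7% and 16.8% of all genes tested rose. The other 2 Sema4a entries were lower, at 0.136 to 1.59 and 0.23 to 1.86 FPKM over all libraries.

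Sema4b, another class 4 gene, had its highest levels in the ΔNp63-labelled group. It measured 5.02 and 5.48 FPKM in control tumours, 9.09, 6.997 and 8.42 among ΔNp63-labelled and 7.52, 6.70 and 6.78 among ΔNp73-labelled tumours. All 6 libraries given Cre were above the controls, replicate 2 included. Of all genes tested, 12.6% lay higher than control without overlap in the ΔNp63-labelled and 27.7% in the ΔNp73-labelled group. The differences were 0.55 (SE 0.15, adjusted p = 0.252) and 0.35 (SE 0.15, adjusted p = 0.24), and without replicate 2 both passed, at 0.64 (adjusted p = 0.0085) and 0.35 (adjusted p = 0.0334). In that fit 11.7% and 16.8% of all genes tested rose. Between the groups given Cre the ΔNp73-labelled minus the ΔNp63-labelled level was -0.19 on the log2 scale, with overlap (SE 0.14, adjusted p = 0.55).

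Sema7A is anchored to the membrane by a lipid and binds plexin-C1 and beta-1 integrins. Sema7a measured 10.4 and 10.1 FPKM in control tumours, 9.67, 4.04 and 9.57 among ΔNp63-labelled and 7.11, 7.73 and 7.44 among ΔNp73-labelled tumours. Both controls were above all other libraries. Of all genes tested, 17.7% lay lower than control without overlap in the ΔNp63-labelled and 35.7% in the ΔNp73-labelled group. The differences were -0.44 (SE 0.32, adjusted p = 0.586) and -0.42 (SE 0.32, adjusted p = 0.471). Without ΔNp63-labelled replicate 2, Sema7a fell in the ΔNp73-labelled group (-0.42, SE 0.09, adjusted p = 0.0123), and the ΔNp63-labelled group was at -0.08 (adjusted p = 0.555). In that fit 16.1% of all genes tested fell in the ΔNp73-labelled group.

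Sema6D is a ligand of plexin-A1, and of the entries used for the 10 genes that of Sema6d had the lowest mean. The entry used measured 1.16 and 1.54 FPKM in control tumours, 0.992, 0.684 and 1.82 among ΔNp63-labelled and 1.64, 0.798 and 2.63 among ΔNp73-labelled tumours, and the groups overlapped. A second entry had nearly the same mean, 1.41 against 1.41 FPKM, but was at 1.29 and 1.68e-05 in the controls, so the split between its transcripts is uncertain. Neither difference passed, at -0.15 (SE 0.33, adjusted p = 0.891) and 0.14 (SE 0.33, adjusted p = 0.829).

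**Figure D2:**
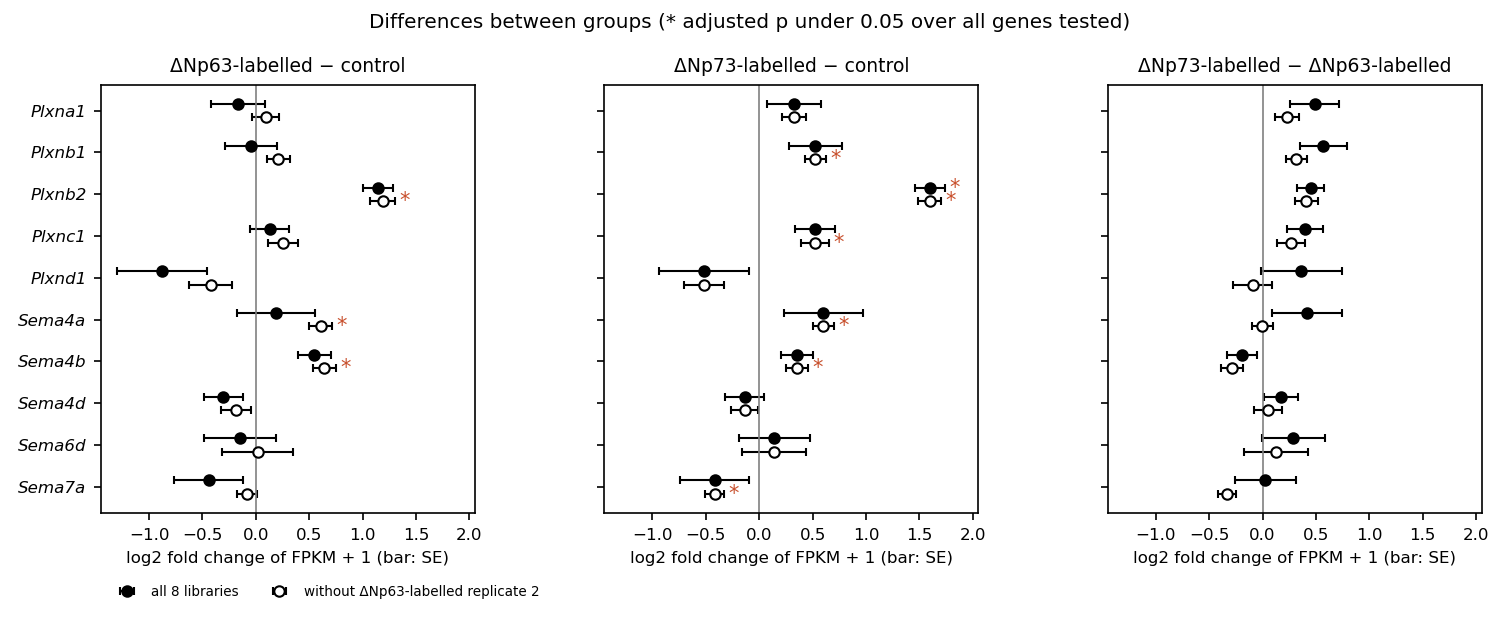
Difference between groups in log2(FPKM + 1) (horizontal axes) for the 10 genes, with the SE as a bar, from the model with all 8 libraries (filled) and without ΔNp63-labelled replicate 2 (open); asterisks mark an adjusted p under 0.05. With all libraries Plxnb2 alone is marked, at 1.60 in the ΔNp73-labelled group, and without replicate 2 the marks are 3 in the first panel, 6 in the second and 0 in the third.

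Counted over the 10 genes, 1 rose and 0 fell in the ΔNp73-labelled group against control by limma, where 0.0464% of all genes rose and 0.00774% fell, and 2 (Plxnb2 and Plxnc1) had an unadjusted p under 0.05, which 21.3% of all genes tested had. Without overlap, 6 were higher and 2 lower, where 27.7% and 35.7% of all genes were. In the ΔNp63-labelled group 0 passed by limma and 2 (Plxnb2 and Sema4b) had an unadjusted p under 0.05, against 13.0% of all genes, while 0.0929% of all genes passed. There 2 were higher and 2 lower without overlap, where 12.6% and 17.7% of all genes were, and without replicate 2 these were 6 and 2, where 31.9% and 37.1% were. Between the groups given Cre 0 passed by limma, while 0.0542% of all genes did, and 3 (Plxnb1, Plxnb2 and Plxnc1) had an unadjusted p under 0.05, against 10.5%. In that comparison 4 of the 10, the plexin genes Plxna1, Plxnb1, Plxnb2 and Plxnc1, were higher in the ΔNp73-labelled libraries without overlap and 0 were lower, where 10.3% and 8.58% of all genes were. The median log2 fold change of the 10 was 0.34 in the ΔNp73-labelled group, beside -0.07 for all genes tested, -0.10 beside -0.02 in the ΔNp63-labelled group, and 0.38 beside -0.02 between the groups given Cre. Both comparisons with control use the same 2 control libraries. Since the 10 were picked with earlier results of these data in view, their counts and medians are descriptions and no independent support.

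Without ΔNp63-labelled replicate 2 more of the 10 passed, as did many more of all genes. In the ΔNp63-labelled group 3 rose (Plxnb2, Sema4a and Sema4b) and 0 fell, where 11.7% of all genes tested rose and 10.8% fell. In the ΔNp73-labelled group 5 rose (Plxnb1, Plxnb2, Plxnc1, Sema4a and Sema4b) and Sema7a fell, where 16.8% rose and 16.1% fell. Between the groups given Cre 0 passed by limma, while 0.149% of all genes passed. At an unadjusted p under 0.05 there, 2 of the 10 were higher and 2 lower. Of all 12782 genes then tested, 1993 had such a p in either direction. Replicate 2 was the lowest of the 8 libraries for 8 of the 10 genes and the highest for 0, while it was lowest for 32.9% and highest for 31.5% of all genes tested. Its level was 0.367 times the mean of the other ΔNp63-labelled libraries for Plxnd1, 0.371 for Sema4a and 0.42 for Sema7a, but 0.909 for Plxnb2.

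The order of the 10 levels was led by Sema4d and Plxnd1 in each of the 3 groups. In the controls Plxnb2 ranked 7, below Sema7a, Sema4a, Plxna1 and Sema4b, and in both groups given Cre it ranked 3. In the controls the ranges of neighbours in this order did not overlap, with 2 libraries each. In the ΔNp73-labelled group Plxnb2 was above Sema4a, its next neighbour, in 3 of 3 libraries without overlap. Overlaps there were of Plxna1 with Sema7a, Sema7a with Sema4b and Plxnc1 with Plxnb1. In the ΔNp63-labelled group Sema4d alone was clear of its next neighbour, and all later neighbours in the order overlapped. Plxnb2, Sema4a, Sema4b and Sema7a have no clear order there. The relative spread within the ΔNp73-labelled group was smallest for Plxnb2, with an SD of 2.16% of the mean, and largest for Sema6d, at 54.3%.

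Patterns over the 8 libraries were compared by the root mean square difference of log2(FPKM + 1), each gene centred on its own mean. Among the 10, Plxna1 and Plxnb1 were the closest pair, at 0.106, and Plxnb2 and Plxnd1 the farthest, at 0.988. Over all genes tested, the 5 nearest to Plxnb2 were Jun at 0.124, Clec7a at 0.133, Loxl2 at 0.172, Fkbp10 at 0.174 and Apbb2 at 0.175. Jun encodes a subunit of the transcription factor AP-1, Clec7a a myeloid receptor for fungal beta-glucan, Loxl2 an enzyme that crosslinks collagen and Fkbp10 a collagen chaperone. Jun, the nearest, measured 3.596 and 3.52 FPKM in control tumours, 9.14, 7.25 and 7.22 among ΔNp63-labelled and 14.5, 11.8 and 11.3 among ΔNp73-labelled tumours.

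Markers of other cell types are given as sums over each list, without a test of the sums. The 13 macrophage and monocyte markers with an entry summed to 432.2 and 492.2 FPKM in the controls, to 490.7 to 1305 in the ΔNp63-labelled and to 1197 to 1642 in the ΔNp73-labelled libraries. By limma 0 of these 13 passed against control in the ΔNp63-labelled and the ΔNp73-labelled group. At an unadjusted p under 0.05, 10 and 13 of them were higher, where 13.0% and 21.3% of all genes differed in either direction. With ΔNp63-labelled replicate 2 left out, 12 and 13 rose, where 11.7% and 16.8% of all genes did. The 9 fibroblast markers other than Thy1, which was left out after its values were seen because it is also a thymocyte gene, summed to 86.9 and 88.1 FPKM, to 98.9 to 229 and to 248.4 to 342.4. Of these 9, 1 (Col1a2) rose in the ΔNp73-labelled group against control with all libraries, and 8 were higher at an unadjusted p under 0.05. By limma 0 passed in the ΔNp63-labelled group, and 4 were higher at an unadjusted p under 0.05. Without replicate 2, 9 of 9 rose in the ΔNp73-labelled and 6 of 9 in the ΔNp63-labelled group. The 10 endothelial markers summed to 26.9 and 34.4, to 36.04 to 45.96 and to 40.7 to 72.6 FPKM. By limma 0 of these 10 passed against control in the ΔNp63-labelled and the ΔNp73-labelled group. There 3 and 7 were higher at an unadjusted p under 0.05. With ΔNp63-labelled replicate 2 left out, 2 and 6 rose. The 10 epithelial markers summed to 443.1 to 466.2, 104.1 to 673.1 and 541.4 to 956.9 FPKM, the 8 neutrophil markers to 169.7 to 665.6, 54.5 to 756.4 and 933.3 to 1557, the 8 dendritic cell markers to 335.9 to 338.9, 146.1 to 590.9 and 512.3 to 559.6 (89.2% to 91.4% of it H2-Ab1, which B cells, macrophages and epithelium also make), and the 7 B cell markers to 37.7 to 39.3, 12.0 to 78.5 and 53.5 to 58.0, in the same order of groups. S100a8 made up 57.1% to 71.9% of the neutrophil sum. By limma with all libraries, 0 of the epithelial, neutrophil, dendritic cell and B cell markers passed against control. In the ΔNp73-labelled group 2 of 10, 3 of 8, 1 of 7 and 2 of 7 tested were higher at an unadjusted p under 0.05. In the ΔNp63-labelled group 0, 1, 1 and 1 were. With ΔNp63-labelled replicate 2 left out, 4, 5, 5 and 2 of them rose in the ΔNp73-labelled group, where 16.8% of all genes did. In the ΔNp63-labelled group 2, 3, 3 and 2 rose, where 11.7% of all genes did. In both fits and both groups 1 dendritic cell marker was lower by the same measure. No marker on these lists was under 0.1 FPKM in every library. Cd209a, a dendritic cell marker, was lower in all 6 libraries given Cre, at 0.316 to 1.36 FPKM against 2.25 and 3.01 in the controls. Of all genes tested, 17.7% lay lower than control without overlap in the ΔNp63-labelled and 35.7% in the ΔNp73-labelled group. In ΔNp63-labelled replicate 2, where Plxnb2 was at 8.87 FPKM, 2.32 times the level of the higher control, the macrophage sum was 490.7 FPKM. Of the 13 macrophage markers 10 lay above both controls in that library, among them Fcgr1 at 4.18 against 1.25 and 1.22 FPKM, while Lyz2, the largest part of the sum, lay below both at 151.1 FPKM. Of the 9 fibroblast markers 4 lay above both controls and 4 below both in that library, with Col1a2 at 18.7 against 8.01 and 6.23 FPKM. The part of these cells in the levels of Plxnb2 was not tested.

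**Figure D3:**
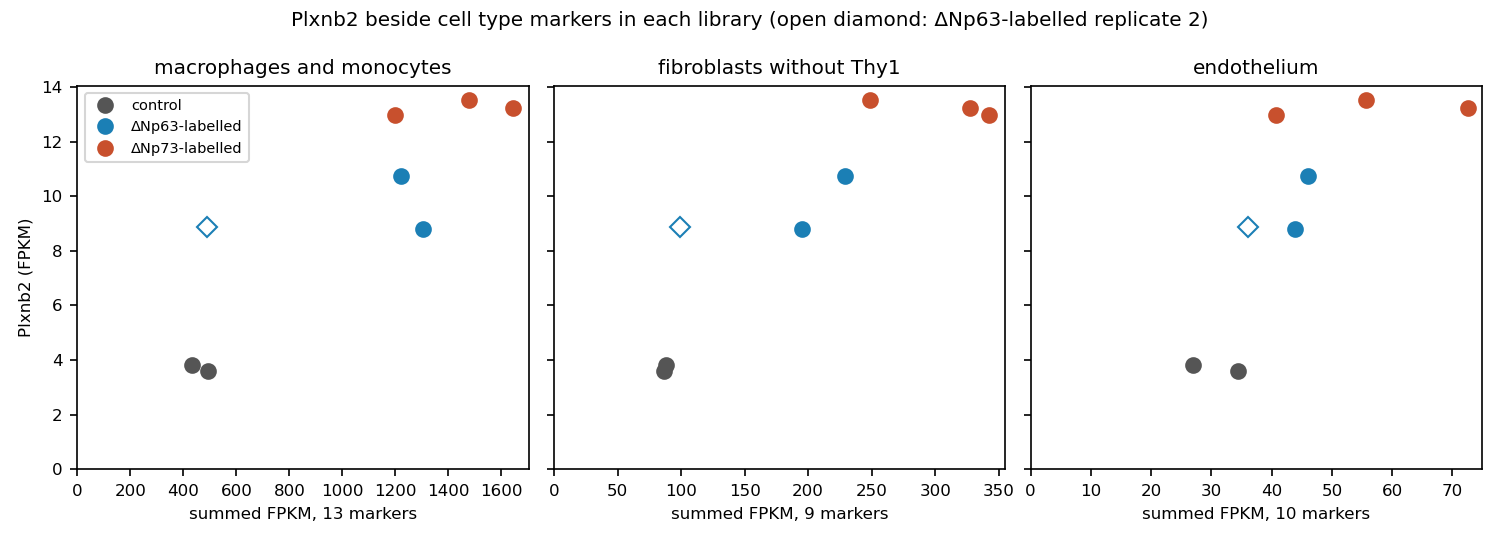
Plxnb2 (FPKM, vertical axis) against the summed FPKM of macrophage, fibroblast and endothelial markers (horizontal axes), 1 point per library; the open diamond is ΔNp63-labelled replicate 2. That library has a macrophage sum of 490.7, beside 432.2 and 492.2 in the controls, though 10 of the 13 markers in it lie above both controls, and Plxnb2 at 8.87 FPKM against 3.59 and 3.83.

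Of 9 plexin genes 7 had an entry and 6 were tested, and of 20 semaphorin genes 14 had an entry and 13 were tested. By limma with all libraries, 0 of the 8 tested semaphorins outside the 10 passed in any comparison. In the ΔNp73-labelled group 3 were higher at an unadjusted p under 0.05, which 21.3% of all genes had in either direction. Sema6b, a class 6 ligand, measured 0.233 and 0.403 FPKM in control tumours, 1.11, 0.585 and 0.863 among ΔNp63-labelled and 1.21, 1.01 and 0.978 among ΔNp73-labelled tumours, a log2 difference of 0.65 in the last (SE 0.18, adjusted p = 0.119). On the same log2 scale Sema3f, a secreted ligand of neuropilin-2, differed from control by 0.67 (SE 0.21, adjusted p = 0.142), Sema4c, a ligand of plexin-B2, by 0.41 (SE 0.16, adjusted p = 0.213) and the secreted ligand gene Sema3g by 0.63 (SE 0.33, adjusted p = 0.303). Sema4c measured 2.17 and 1.83 FPKM in control tumours and 2.87 to 4.13 in the 6 other libraries, without overlap. Of all genes tested, 12.6% lay higher than control without overlap in the ΔNp63-labelled and 27.7% in the ΔNp73-labelled group. Plxna2, the tested plexin outside the 10, differed by 0.18 (SE 0.20, adjusted p = 0.63). Without ΔNp63-labelled replicate 2, 4 of the 6 other semaphorins then tested rose in the ΔNp73-labelled group, where 16.8% of all genes did.

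**Figure D4:**
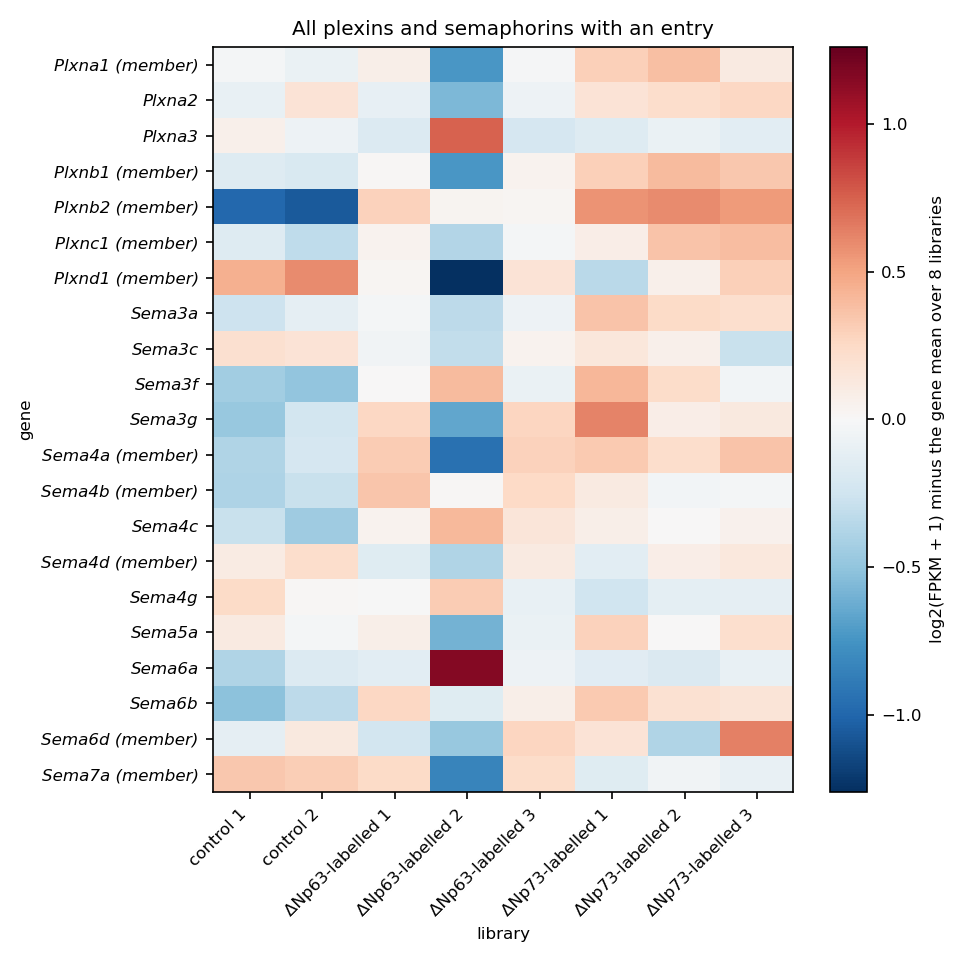
All 21 plexin and semaphorin genes with an entry (rows) in the 8 libraries (columns), coloured by log2(FPKM + 1) minus the gene mean. The Plxnb2 row goes from low in both controls to high in the ΔNp73-labelled libraries, and the column of ΔNp63-labelled replicate 2 is the lowest of the 8 for 5 of 7 plexins and 8 of 14 semaphorins and the highest for 1 and 3.

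Co-receptors and other semaphorin receptors lay above control in the ΔNp73-labelled group for 11 of the 12 tested, with a median log2 fold change of 0.73 beside -0.07 for all genes, but 0 passed by limma and 4 had an unadjusted p under 0.05, against 21.3% of all genes. Tyrobp, which encodes the adaptor DAP12, measured 33.2 and 41.96 FPKM in control tumours, 217, 38.9 and 136.7 among ΔNp63-labelled and 198.3, 169.3 and 144 among ΔNp73-labelled tumours (a log2 difference of 2.15 in the last, SE 0.63, adjusted p = 0.13). Itgb1, the beta-1 integrin chain that binds Sema7A, measured 49.0 and 49.0 FPKM in control tumours, 51.7, 40.4 and 57.3 among ΔNp63-labelled and 73.5, 84.4 and 68.1 among ΔNp73-labelled tumours, a log2 difference of 0.60 in the ΔNp73-labelled group (SE 0.18, adjusted p = 0.139). Its partner chain gene Itga1 differed by 0.85 (SE 0.26, adjusted p = 0.14), and Met, the receptor of hepatocyte growth factor that class B plexins can associate with, by 1.06 (SE 0.37, adjusted p = 0.176). Without ΔNp63-labelled replicate 2, 7 of the 12 rose in this comparison, where 16.8% of all genes did.

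Of 29 tested genes for signalling below plexins, 18 lay above and 11 below control in the ΔNp73-labelled group (median 0.23), 0 passed by limma, and 9 were higher at an unadjusted p under 0.05, which 21.3% of all genes had in either direction. Fes, a tyrosine kinase of myeloid cells, measured 2.12 and 2.11 FPKM in control tumours, 7.50, 1.69 and 6.10 among ΔNp63-labelled and 8.85, 9.16 and 9.36 among ΔNp73-labelled tumours (a log2 difference of 1.70 in the last, SE 0.44, adjusted p = 0.111). For Fes, ΔNp63-labelled replicate 2 was the lowest library. Macrophage markers were higher in the 5 other libraries given Cre by their sum, and 10 of 13 were above both controls in replicate 2. Their part in the levels of Fes and Tyrobp was not tested. Limk1, the kinase that inactivates cofilin, differed from control by 0.49 (SE 0.14, adjusted p = 0.13). Without ΔNp63-labelled replicate 2, 11 of the 28 then tested rose and 0 fell, where 16.8% of all genes rose and 16.1% fell.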

How the data were processed

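The deposited values are FPKM, 1 per RefSeq transcript and library, which the authors quantile-normalised across the 8 libraries (from the name and the values of the table). TopHat2 2.0, Cufflinks 2.0 and build mm9 are named in the submitters' processing notes, with no role given. The table holds 16589 entries under 13681 symbols, and 35 symbols that had become dates were restored from the RefSeq identifier. Sorted values were equal between libraries within 1% apart from 14.0% of entries, so a change in total RNA cannot be seen, and depth is unknown. No interval that needs counts is given.

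For each symbol the entry with the highest mean was kept, and genes at 1 FPKM or more in at least 2 libraries were tested (12921). Values were analysed as log2(FPKM + 1), so changes of low genes are understated, with limma 3.58.1 in R 4.3.3 (1 model of all libraries, intensity trend, two-sided, Benjamini-Hochberg adjustment over all genes tested, threshold 0.05). The fit was tested on simulated data in which a gene had the same spread in every library. That test holds no library that stands apart, so it says nothing about the effect of ΔNp63-labelled replicate 2.

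The 10 genes and the lists were chosen with earlier results of these data known. Named beside the 10 are, per pathway list, genes called or else up to 4 with the smallest p in the ΔNp73-labelled group against control, and the 5 genes most like each called gene. Some genes that this rule names are not reported here. Replicate numbers follow the order of the samples and pair nothing. Promoter windows were matched to entries through GENCODE's RefSeq identifiers. Alternatives were another pseudocount, no filter, summed entries, library weights, median centring, the compared groups alone and each library left out.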

Additional observations from a re-analysis of the deposited data

How the results depend on the processing

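No paired analysis was possible because the labels give no replicate numbers that link samples across groups. The counts of called genes depended strongly on ΔNp63-labelled replicate 2 and on how its spread was treated. With each library left out in turn, the count over all genes ranged from 3 to 2882 in the ΔNp63-labelled group against control (12 with all), from 0 to 4212 in the ΔNp73-labelled group (7 with all) and from 6 to 19 between the groups given Cre (7 with all). The highest count of each range came without ΔNp63-labelled replicate 2. The 0 came from limma without control replicate 1 or 2, with 1066 and 1254 genes at an unadjusted p under 0.05. Of the 10 plexin and semaphorin genes, 0 to 3 passed in the first comparison, 0 to 6 in the second and 0 to 0 in the third, with at least 1 of them at an unadjusted p under 0.05 for every library left out. Where this leaves 1 control, it is assumed to vary like the other groups. With library weights 4480, 6569 and 344 genes passed, of the 10 genes 3, 8 and 0; replicate 2 then had a weight of 0.0567 against 0.651 to 4.30 for the others. With only the compared groups in the model, 5 and 3890 genes passed in the comparisons with control, and 6 of the 10 genes in the ΔNp73-labelled group. With a pseudocount of 0.1, 18 genes passed in the ΔNp73-labelled group, and 14 with median centring. Under each of these 2 settings 1 of the 10 genes, Plxnb2, passed in the ΔNp63-labelled group (1.32, adjusted p = 0.0481, and 1.19, adjusted p = 0.0489), with an adjusted p from 0.000559 to 0.855 over all settings.

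Some differences that had not passed changed sign, and none of these passed under the setting that turned them. Against control in the ΔNp63-labelled group, library weights gave 0.089 for Plxna1 and 0.19 for Plxnb1, median centring 0.00044 for Plxnb1 and summed entries 0.32 for Sema6d. In the ΔNp73-labelled group library weights gave -0.18 for Sema6d, and between the groups given Cre -0.035 for Sema4a, -0.10 for Sema6d and -0.28 for Sema7a. With single libraries left out, the ranges that crossed 0 were -0.32 to 0.090 for Plxna1, -0.18 to 0.21 for Plxnb1, -0.026 to 0.61 for Sema4a and -0.36 to 0.016 for Sema6d in the ΔNp63-labelled group, and -0.11 to 0.40 for Sema6d in the ΔNp73-labelled group. Between the groups given Cre they were -0.094 to 0.63 for Plxnd1, -0.0045 to 0.63 for Sema4a and -0.33 to 0.21 for Sema7a. The cause of these changes was not tested.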
